A study of Mus musculus with 12 samples.

Results

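The genes described here are 10 mouse genes whose products are stored in the secondary and tertiary granules of neutrophils, or, for S100a8 and S100a9, fill the cytosol of these cells: S100a8, S100a9, Ltf, Camp, Ngp, Lcn2, Chil3, Mmp8, Mmp9 and Cd177. They were chosen by symbol from 37574 genes for which exon counts could be assembled. The members and the other gene lists below were chosen with earlier results of these data known. Their counts set beside all tested genes are therefore descriptive and not independent support. Of the 10 members, 9 were among the 15706 genes with enough counts to be tested. Mmp9 was not tested. The study measured RNA by low-input RNA-seq in 12 mouse libraries, 3 in each of 4 groups. WT HSC and MLL-ENL HSC are haematopoietic stem cells sorted as Lin-Sca1+ckit+CD48-CD150+. WT preGM and MLL-ENL preGM are pre-granulocyte-macrophage progenitors, cells of the Lin- Sca1- ckit+ fraction that were negative for CD150, CD105, CD41 and CD16/32. The WT groups carry the strain label C57bl/6 WT and the MLL-ENL groups the label Col1a1-MLL/ENL, after the fusion of the histone methyltransferase gene MLL with ENL that occurs in acute leukaemia. Every library, WT included, came from cells cultured for 48 h in OptiMEM with 10% FCS, 1 µg/ml doxycycline, 10 to 50 ng/ml SCF, 5 ng/ml IL3 and 5 ng/ml G-CSF. No MLL-ENL library without doxycycline was included, so the fusion and the strain cannot be told apart. The labels give neither the age of the mice nor the element that drives the fusion, nor whether the sort came before or after the culture. They also do not say whether replicates are separate animals. The p-values below therefore rest on how far libraries of a group differ, and part of that may be technical.

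Neutrophil granules are filled in sequence as the cells mature. Primary granules form first, in promyelocytes, and hold myeloperoxidase and serine proteases. Secondary (specific) granules form in myelocytes and metamyelocytes and hold lactoferrin, cathelicidin and lipocalin, and tertiary (gelatinase) granules form last. Transcription of the secondary granule genes depends on C/EBP family factors, C/EBP epsilon above all, and PU.1 and GFI1 act earlier in the same lineage. G-CSF, which was present in all of these cultures, is the main cytokine of neutrophil production.

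The promoters of the members whose results are described most closely are printed here because these members fell by very different amounts between the groups. RefSeq promoter windows of the build GRCm38.p6 were found for 9 members, Mmp9 being the exception. Each window runs 5′ to 3′ from 250 bases before the annotated start to 50 after it. Capitals mark matches on either strand to TTGCNNAA, a C/EBP half-site pair, or to GAGGAA, the core of PU.1 sites, and matches on the gene's strand to the TATA box TATAAA, a motif added after the sequences had been seen. No printed match overlaps another.
S100a8 (chr3:90668821-90669120, plus strand): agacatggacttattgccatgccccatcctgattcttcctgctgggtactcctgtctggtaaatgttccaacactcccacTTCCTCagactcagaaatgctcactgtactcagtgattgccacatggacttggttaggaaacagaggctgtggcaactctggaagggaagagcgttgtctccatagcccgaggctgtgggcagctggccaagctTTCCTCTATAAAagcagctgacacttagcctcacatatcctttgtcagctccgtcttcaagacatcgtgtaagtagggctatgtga
S100a9 (chr3:90695672-90695971, minus strand): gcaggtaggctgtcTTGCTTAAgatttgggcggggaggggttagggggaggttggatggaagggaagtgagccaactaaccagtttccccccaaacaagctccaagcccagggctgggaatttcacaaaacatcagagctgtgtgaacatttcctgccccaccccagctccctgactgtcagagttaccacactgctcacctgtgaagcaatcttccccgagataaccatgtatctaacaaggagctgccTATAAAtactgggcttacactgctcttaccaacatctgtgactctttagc
Ngp (chr9:110419558-110419857, plus strand): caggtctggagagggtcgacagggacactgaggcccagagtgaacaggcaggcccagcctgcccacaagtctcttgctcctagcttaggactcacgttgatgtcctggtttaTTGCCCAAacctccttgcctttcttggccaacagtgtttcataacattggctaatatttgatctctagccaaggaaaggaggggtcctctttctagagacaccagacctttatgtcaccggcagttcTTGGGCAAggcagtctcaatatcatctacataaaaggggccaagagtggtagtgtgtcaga
Ltf (chr9:111019042-111019341, plus strand): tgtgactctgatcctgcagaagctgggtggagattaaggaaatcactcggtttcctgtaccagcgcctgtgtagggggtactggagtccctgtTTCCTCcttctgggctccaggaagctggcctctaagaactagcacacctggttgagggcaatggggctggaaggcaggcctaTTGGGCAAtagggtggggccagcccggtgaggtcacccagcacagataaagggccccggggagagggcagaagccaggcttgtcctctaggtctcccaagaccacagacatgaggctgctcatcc
Lcn2 (chr2:32387690-32387989, minus strand): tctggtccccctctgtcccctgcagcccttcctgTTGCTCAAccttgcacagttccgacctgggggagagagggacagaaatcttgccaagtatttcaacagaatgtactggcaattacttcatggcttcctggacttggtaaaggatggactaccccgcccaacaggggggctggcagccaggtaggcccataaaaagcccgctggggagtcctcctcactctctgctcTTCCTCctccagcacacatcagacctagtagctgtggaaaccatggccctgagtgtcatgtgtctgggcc
Mmp8 (chr9:7558179-7558478, plus strand): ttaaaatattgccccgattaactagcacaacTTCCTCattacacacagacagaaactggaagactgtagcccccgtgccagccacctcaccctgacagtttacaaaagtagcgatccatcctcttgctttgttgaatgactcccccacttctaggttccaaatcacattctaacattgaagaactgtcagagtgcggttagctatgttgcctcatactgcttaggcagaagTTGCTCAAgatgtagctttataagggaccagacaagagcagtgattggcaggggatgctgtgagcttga

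The C/EBP letters occurred in 5 of the 9 member windows (Lcn2, Ltf, Mmp8, Ngp and S100a9) and in 10.8% of all 32851 promoter windows of this length. The PU.1 letters occurred in 5 of 9 (Cd177, Lcn2, Ltf, Mmp8 and S100a8) and in 28.3% of all windows. TATAAA occurred in 4 of 9 (Cd177, Chil3, S100a8 and S100a9) and in 8.32% of all. In S100a8 the TATAAA match began 30 bases before the annotated start and abutted a PU.1 match. Relative to the annotated start the match began at -40 in Cd177, but at -3 in Chil3 and 0 in S100a9, on the start itself. Ngp held C/EBP matches beginning 138 and 11 bases before its start. These are matches of letters and not measured binding.

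S100a8 (ENSMUSG00000056054) and S100a9 (ENSMUSG00000056071) lie 26.7 kb apart on chromosome 3, at 90668978 to 90670035 and 90692632 to 90695721 in GRCm38, the build of the gene annotation used here. The sources used here do not name the build of the deposited files. Camp (ENSMUSG00000038357, 109847379 to 109849617), Ngp (ENSMUSG00000032484, 110419747 to 110423012) and Ltf (ENSMUSG00000032496, 111019271 to 111042767) lie on chromosome 9 with starts 570 and 600 kb apart. Mmp8 (ENSMUSG00000005800) lies on chromosome 9 at 7558456 to 7568485, and Lcn2 (ENSMUSG00000026822) and Mmp9 (ENSMUSG00000017737) lie on chromosome 2 at 32384633 to 32388252 and 164940780 to 164955850. Chil3 (ENSMUSG00000040809) lies on chromosome 3 at 106147554 to 106167564 and Cd177 (ENSMUSG00000052212) on chromosome 7 at 24743983 to 24760311. The values are summed over the exons of each gene, and no member shared exon bases with another annotated gene. Chil4, a close copy of Chil3, held 3, 2 and 3 counts in the WT preGM libraries and 0 in the other 9.

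The libraries held 14529282 to 50325667 gene counts, with the HSC libraries shallower than the preGM libraries. The summed level of 11 stem cell markers was 724 to 868 CPM (gene counts scaled to a common library total) in WT HSC and 83.3 to 98.0 CPM in WT preGM, and that of 10 primary granule genes was 2002 to 2148 CPM in WT HSC and 33467 to 36274 CPM in WT preGM. The antigens of the gates did not all follow the labels at the RNA level. Since the order of sort and 48 h culture is not given, RNA and gate may not be of the same time. Fcgr3 and Fcgr2b, which encode CD16 and CD32, were at 137 to 250.4 CPM and 84.8 to 189 CPM in WT preGM, a group sorted as negative for CD16/32, and at 0.543 to 1.85 CPM and 1.81 to 2.57 CPM in WT HSC. Cd48 was at 91.4 to 134 CPM in WT HSC, which were sorted as CD48-, and at 4.18 to 6.44 CPM in MLL-ENL HSC. WT preGM library 2 and MLL-ENL preGM library 1 stood apart from the other libraries of their groups. The chi-square per gene against a groupmate was 447 to 565 for pairs with either library and 17.0 to 32.4 for every other pair, so no libraries agreed within sampling noise. Calls described below that change without these libraries are given with and without them.

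In WT preGM the granule genes were abundant, and in MLL-ENL preGM nearly all of that RNA was missing. The 10 members together made up 0.301% to 0.353% of all gene counts in the WT preGM libraries and 0.00342% to 0.00460% in the MLL-ENL preGM libraries. All 9 tested members fell in MLL-ENL preGM relative to WT preGM by edgeR's quasi-likelihood test (adjusted p under 0.05 over all 15706 genes), where 3.07% of all tested genes were called lower and 6.77% were called in either direction. The median change of the 9 was -8.02 on the log2 scale, against 0.08 over all tested genes. Camp reached the count filter only through WT preGM, so it could only fall in this comparison. The libraries of the groups did not overlap for 9 of the 10 members, the exception being Mmp9, while 12.8% of tested genes were lower without overlap. Without the 2 libraries that stood apart the count was again 9 of 9. The RNA is from bulk samples, so fewer cells that express these genes and less RNA per cell cannot be told apart.

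**Figure D1:**
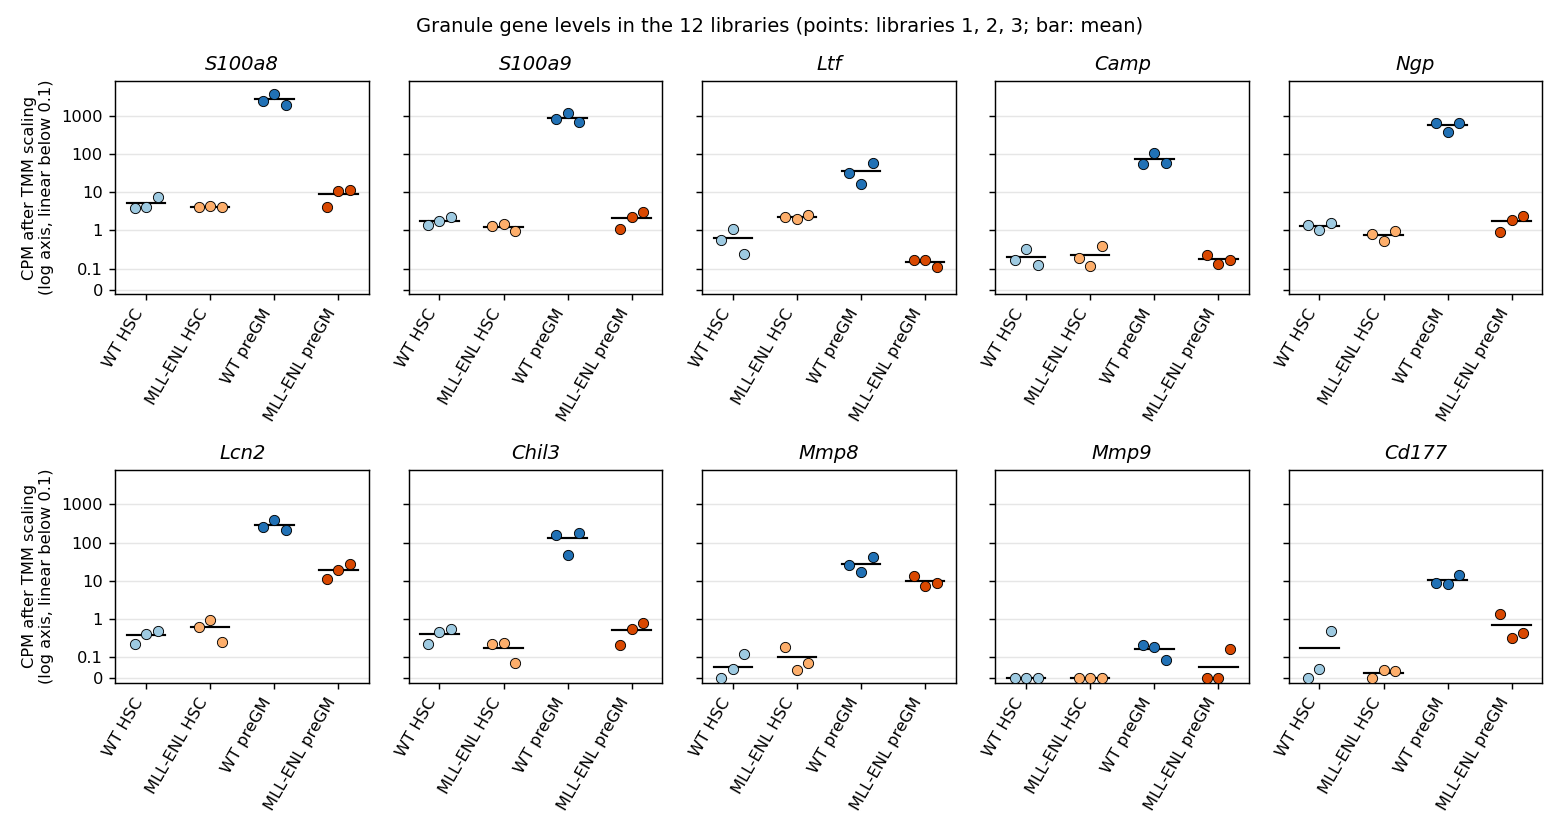
Levels of the 10 granule genes in each library, in CPM after TMM scaling on a log axis that is linear below 0.1; points are libraries and bars are group means of 3. S100a8 sits at 1946 to 3619.8 CPM in the WT preGM libraries and at 4.14 to 11.4 CPM in MLL-ENL preGM, whereas Mmp8 sits at 16.9 to 41.5 CPM and 7.38 to 13.7 CPM.

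S100a8 and S100a9 encode the subunits of calprotectin, a calcium- and zinc-binding protein that is among the most abundant in the neutrophil cytosol. S100a8 stood at 2423, 3619.8 and 1946 CPM in WT preGM libraries 1, 2 and 3, and at 4.14, 10.6 and 11.4 CPM in the MLL-ENL preGM libraries. All 3 WT libraries were high and all 3 MLL-ENL libraries low, with no overlap. Its mean fell from 2663 ± 862 to 8.71 ± 3.98 CPM (SD, n = 3 each), a log2 change of -8.26 ± 0.51 (SE; edgeR adjusted p = 6.47e-08). S100a9 stood at 807, 1143 and 665 CPM in the WT preGM libraries and at 1.07, 2.21 and 2.95 CPM in MLL-ENL preGM, a log2 change of -8.72 ± 0.46 (edgeR adjusted p = 1.28e-08). The level of both genes in MLL-ENL preGM overlapped that in WT HSC, which was 3.86, 4.12 and 7.57 CPM for S100a8 and 1.34, 1.77 and 2.22 CPM for S100a9.

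Among the secondary granule proteins, Ltf encodes lactoferrin, which binds iron, Camp the cathelicidin antimicrobial peptide, and Ngp the neutrophilic granule protein. Ngp stood at 640.3, 375 and 637 CPM in the WT preGM libraries and at 0.922, 1.85 and 2.37 CPM in MLL-ENL preGM. Its log2 change was -8.34 ± 0.44 (edgeR adjusted p = 1.28e-08). Camp stood at 54.2, 106 and 55.9 CPM in the WT preGM libraries and at 0.226, 0.130 and 0.166 CPM in MLL-ENL preGM, where the values rest on 12, 4 and 6 counts. Its log2 change was -8.61 ± 0.46 (edgeR adjusted p = 1.28e-08). Ltf stood at 30.6, 16.7 and 57.5 CPM in the WT preGM libraries and at 0.169, 0.162 and 0.110 CPM in MLL-ENL preGM, on 9, 5 and 4 counts. Its log2 change was -7.83 ± 0.58 (edgeR adjusted p = 5.58e-07). Ltf was the only member for which MLL-ENL preGM was the lowest of the 4 groups without overlap, since both HSC groups lay above it.

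Chil3 encodes Ym1, a chitinase-like protein made by immature neutrophils and by some macrophages. It stood at 157, 47.5 and 181 CPM in the WT preGM libraries and at 0.207, 0.552 and 0.773 CPM in MLL-ENL preGM, a log2 change of -8.02 ± 0.60 (edgeR adjusted p = 5.90e-07). WT preGM library 2 was the low one, and it was also the lowest for Ngp, Ltf, Mmp8 and Cd177, but the highest for S100a8, S100a9, Camp and Lcn2. In that library 58.1% of the Chil3 counts lay in the last exon, against 26.8% and 27.2% in libraries 1 and 3. For Mmp8 the last exon held 76.2% of the counts in library 2, against 40.0% and 40.6%. Counted over the last exon alone, Chil3 stood at 42.2, 27.6 and 49.1 CPM, so library 2 was still the lowest. The same held for Ngp. Ltf stood at 2.87, 3.26 and 4.01 CPM over its last exon, so library 2 was not the lowest. Nor was library 2 the lowest over the last exons of Mmp8 and Cd177. The part of this skew in the low values of library 2 thus differed between genes and was not tested.

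Lcn2 encodes lipocalin 2, which binds bacterial siderophores. It stood at 258, 383 and 215 CPM in the WT preGM libraries and at 11.03, 19.6 and 27.8 CPM in MLL-ENL preGM. The groups did not overlap, yet the lowest MLL-ENL preGM library was above every HSC library, the highest of which was 0.955 CPM. The log2 change was -3.88 ± 0.41 (edgeR adjusted p = 2.32e-05). Cd177, a surface and granule-membrane protein of neutrophils, stood at 8.81, 8.19 and 14.5 CPM in the WT preGM libraries and at 1.34, 0.325 and 0.441 CPM in MLL-ENL preGM, on 71, 10 and 16 counts. Its log2 change was -3.86 ± 0.68 (edgeR adjusted p = 0.00239).

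The metalloproteinases Mmp8, the neutrophil collagenase of secondary granules, and Mmp9, the gelatinase that names the tertiary granules, are described last. Mmp8 stood at 25.8, 16.9 and 41.5 CPM in the WT preGM libraries and at 13.7, 7.38 and 8.50 CPM in MLL-ENL preGM, so the groups lay close together without overlapping. Its log2 change was -1.51 ± 0.38 (edgeR adjusted p = 0.0252). The call was lost in 8 of 25 other settings, among them scaling by library size alone (adjusted p = 0.121) and limma on log2(RPKM + 0.1) (adjusted p = 0.150). It was also lost without WT preGM library 1 (0.0692) or 3 (0.133), or without MLL-ENL preGM library 2 (0.0662) or 3 (0.0759), all as edgeR adjusted p. Without both libraries that stood apart the log2 change was -2.08 (edgeR adjusted p = 0.00180). The other 8 tested members were called lower in all 25 settings. Mmp9 was close to the detection limit throughout, with 7, 4 and 3 counts in the WT preGM libraries, 0, 0 and 6 in those of MLL-ENL preGM, and 0 in all 6 HSC libraries. A count of 0 in a single library allows up to 3 counts, or 0.0949 to 0.185 CPM in the HSC libraries. That range overlapped the WT preGM level of 0.0854 to 0.209 CPM, so single libraries could not be told apart at this depth. Over their 3 libraries WT preGM held 14 counts and WT HSC 0, a difference that was not tested.

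The members therefore fell by unequal amounts. Set against the WT preGM mean of each gene, the MLL-ENL preGM libraries held 0.155% to 0.428% of S100a8, 0.123% to 0.339% of S100a9, 0.181% to 0.314% of Camp, 0.167% to 0.431% of Ngp, 0.161% to 0.601% of Chil3 and 0.316% to 0.485% of Ltf. They held 3.86% to 9.74% of Lcn2, 3.09% to 12.7% of Cd177 and 26.3% to 48.8% of Mmp8. The 2 sets of ranges did not overlap, but the sets were formed by sorting the genes on these same shares. Without the 2 libraries that stood apart, the shares of the group means were 0.268% to 0.503% for the first 6 genes, 10.0% for Lcn2, 3.29% for Cd177 and 23.6% for Mmp8.

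**Figure D2:**
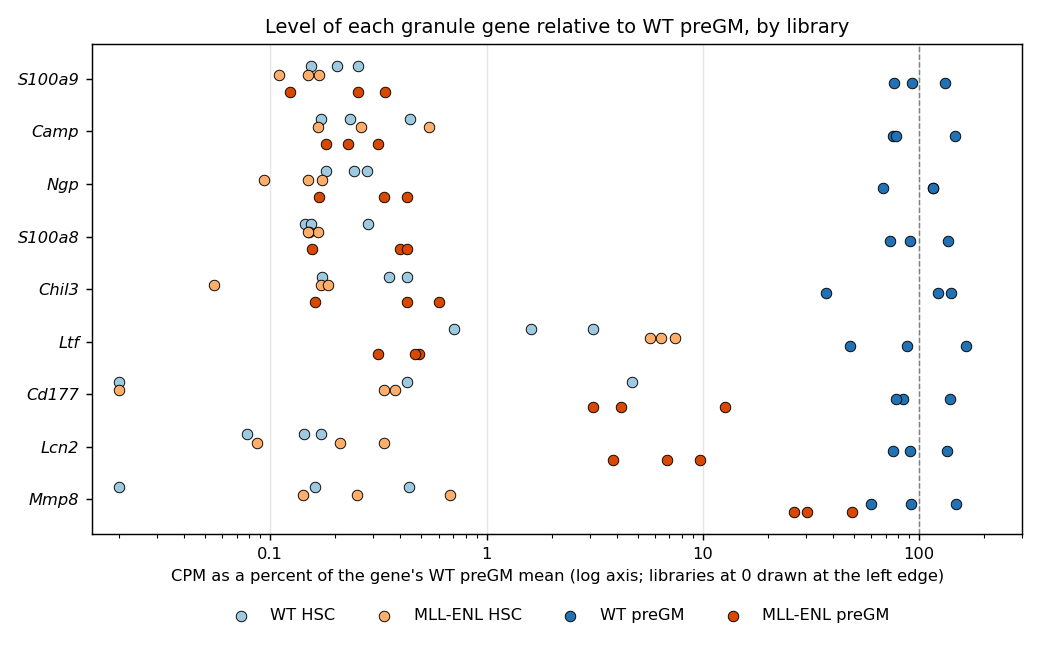
Level of each tested granule gene in each library as a percent of that gene's WT preGM mean, on a log axis; points are libraries, and libraries at 0 are drawn at the left edge. S100a9, Camp, Ngp, S100a8, Chil3 and Ltf lie between 0.123% and 0.601% in MLL-ENL preGM, and Cd177, Lcn2 and Mmp8 between 3.09% and 48.8%.

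Ratios to S100a8 within libraries do not depend on scaling. S100a8 was among the members that fell most, so a member that fell less must have a higher ratio in MLL-ENL preGM. These ratios therefore restate the unequal changes above and are not separate support for them. Per 100 S100a8 counts, Lcn2 had 10.6, 10.6 and 11.1 counts in the WT preGM libraries and 266, 185 and 244 in the MLL-ENL preGM libraries. Mmp8 had 1.06, 0.466 and 2.13 counts in the WT preGM libraries and 330.5, 69.6 and 74.6 in MLL-ENL preGM, and Cd177 0.364, 0.226 and 0.746 against 32.3, 3.07 and 3.87. For each of these 3 genes the groups did not overlap. S100a9 had a mean of 33.0 ± 1.34 counts per 100 S100a8 counts in the WT preGM libraries and 24.2 ± 2.92 in MLL-ENL preGM (SD, n = 3), also without overlap. The ratios of Ngp (23.2 ± 11.5 and 20.2 ± 2.46), Chil3 (5.70 ± 4.05 and 5.66 ± 0.971), Camp (2.68 ± 0.382 and 2.71 ± 2.38) and Ltf (1.56 ± 1.27 and 2.20 ± 1.66) overlapped between the groups. A two-sided exact permutation test gave p = 0.1 for Lcn2, Mmp8, Cd177 and S100a9, the smallest p that 3 libraries against 3 allow (0.2 after Benjamini-Hochberg adjustment over 8 ratios), and 0.5 to 1 for the others. S100a8 and S100a9 held 68.5% to 83.3% of all member counts in the WT preGM libraries, against 15.9% to 29.9% in those of MLL-ENL preGM.

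**Figure D3:**
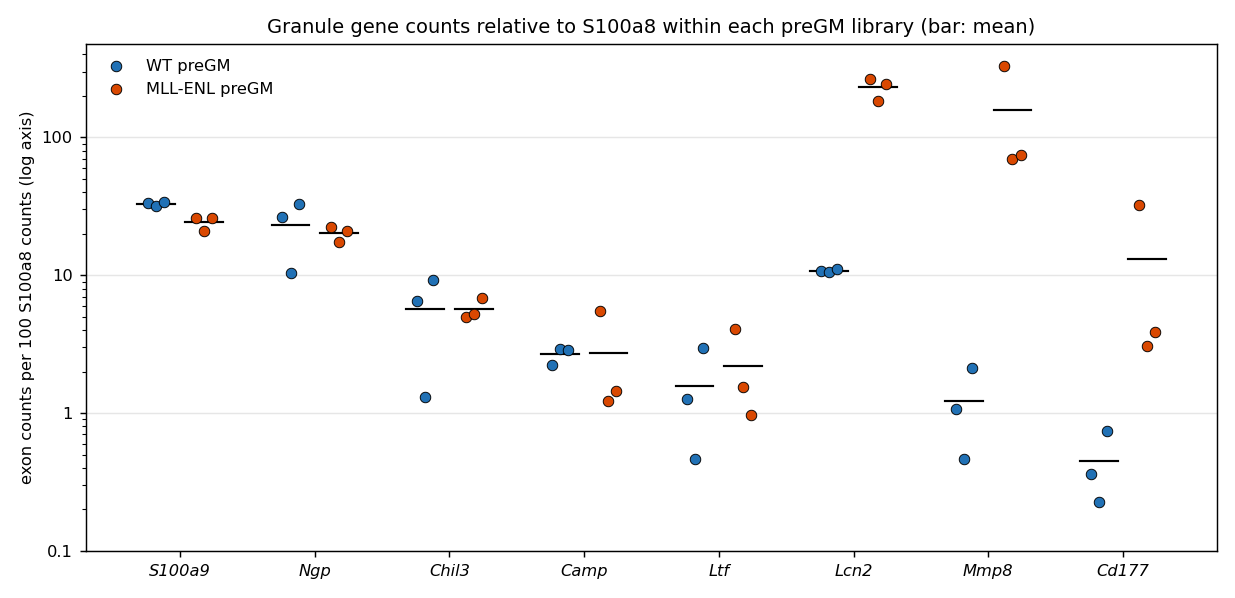
Exon counts of 8 granule genes per 100 S100a8 counts in each preGM library, on a log axis; points are libraries and bars are means of 3. Lcn2, Mmp8 and Cd177 are higher relative to S100a8 in all 3 MLL-ENL preGM libraries than in any WT preGM library, and Ngp, Chil3, Camp and Ltf overlap.

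Counts in introns were compared in the same libraries. The introns of S100a8 held 455, 341 and 269 counts in the WT preGM libraries and 1, 1 and 3 in MLL-ENL preGM, and those of S100a9 held 194, 112 and 136 against 0 in each library. Mmp8 introns held 2, 0 and 4 counts in the WT preGM libraries and 7, 2 and 4 in MLL-ENL preGM, so for this gene the intron counts overlapped. Summed over the members, introns held 0.422 to 0.545 counts per 100 exon counts in the WT preGM libraries and 0.404 to 0.574 in MLL-ENL preGM. The MLL-ENL preGM sums were 10, 7 and 8 intron counts, of which Mmp8 held the 7, 2 and 4 given above. The WT preGM sums were 804, 533 and 565, mostly from S100a8 and S100a9. The 2 sums thus weigh different genes and say little of the genes that fell most. Intron counts over all genes were 1.24 to 2.01 per 100 gene counts in the WT preGM libraries, against 3.50, 1.73 and 1.49 in libraries 1, 2 and 3 of MLL-ENL preGM. Their part in the member values was not tested.

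Levels can be compared between genes per kilobase of exon, as RPKM. In WT preGM the order of mean RPKM was S100a8 (4681 ± 823), S100a9 (1155 ± 156), Ngp (329 ± 125), Lcn2 (93.1 ± 14.6), Camp (81.9 ± 20.7), Chil3 (58.7 ± 36.6), Ltf (9.48 ± 6.50), Mmp8 (8.42 ± 4.62), Cd177 (2.81 ± 1.25) and Mmp9 (0.0315 ± 0.0125). Neighbours in this order overlapped between Lcn2, Camp and Chil3 and between Ltf, Mmp8 and Cd177, and did not overlap elsewhere. In MLL-ENL preGM the order began with S100a8 (18.8 ± 7.12 RPKM), Lcn2 (7.84 ± 2.87), Mmp8 (3.64 ± 1.77) and S100a9 (3.38 ± 1.32), and each of these overlapped the next. Ltf, at 0.0477 ± 0.0146 RPKM, was next to last there, above Mmp9 only.

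The step from stem cell to progenitor was compared within each strain. All 9 tested members were called higher in WT preGM than in WT HSC by edgeR, with log2 changes from 5.73 ± 0.52 for Ltf to 9.56 ± 0.56 for Lcn2, where 18.4% of all tested genes were called higher, 20.1% lower and 38.5% in either direction. All 10 members were higher in every WT preGM library than in every WT HSC library, against 23.6% of tested genes, although for Mmp9 this rests on 3 to 7 counts against 0. All 9 calls held in each of 25 other settings, including without the libraries that stood apart. The changes of Mmp8 (8.92 ± 0.65) and Cd177 (5.95 ± 0.83) rest on 3 and 9 counts in WT HSC and depend on how low counts are smoothed. Camp reached the count filter only through WT preGM, so it could only rise in this comparison. This comparison shares the WT preGM libraries with the comparison of MLL-ENL with WT.

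In the MLL-ENL strain the same step was small for most members. By edgeR, 5 members were called higher in MLL-ENL preGM than in MLL-ENL HSC and 1 lower, where 20.4% of all tested genes were called higher, 21.1% lower and 41.5% in either direction. Mmp8 rose from 0.190, 0.0398 and 0.0707 CPM to 13.7, 7.38 and 8.50 CPM (log2 change 6.50 ± 0.56, edgeR adjusted p = 4.24e-07). Lcn2 rose from 0.601, 0.955 and 0.248 CPM to 11.03, 19.6 and 27.8 CPM (5.02 ± 0.46, edgeR adjusted p = 8.82e-07), and Cd177, with 2 counts over the MLL-ENL HSC libraries, rose by a log2 of 4.70 ± 1.05 (edgeR adjusted p = 0.00232). For these 3 genes every MLL-ENL preGM library was above every MLL-ENL HSC library, as for 25.9% of tested genes, and for 1 member every library was below, as for 28.9%. S100a8 (1.07 ± 0.39, edgeR adjusted p = 0.0388) and Ngp (1.14 ± 0.38, edgeR adjusted p = 0.0262) also passed, but their groups overlapped and the calls were lost in 10 and 8 of 25 settings, without MLL-ENL preGM library 2 or 3 among them. Without the 2 libraries that stood apart 8 members were called, S100a9 and Chil3 being added, but the calls over all genes also rose, from 6520 to 8154.

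**Figure D4:**
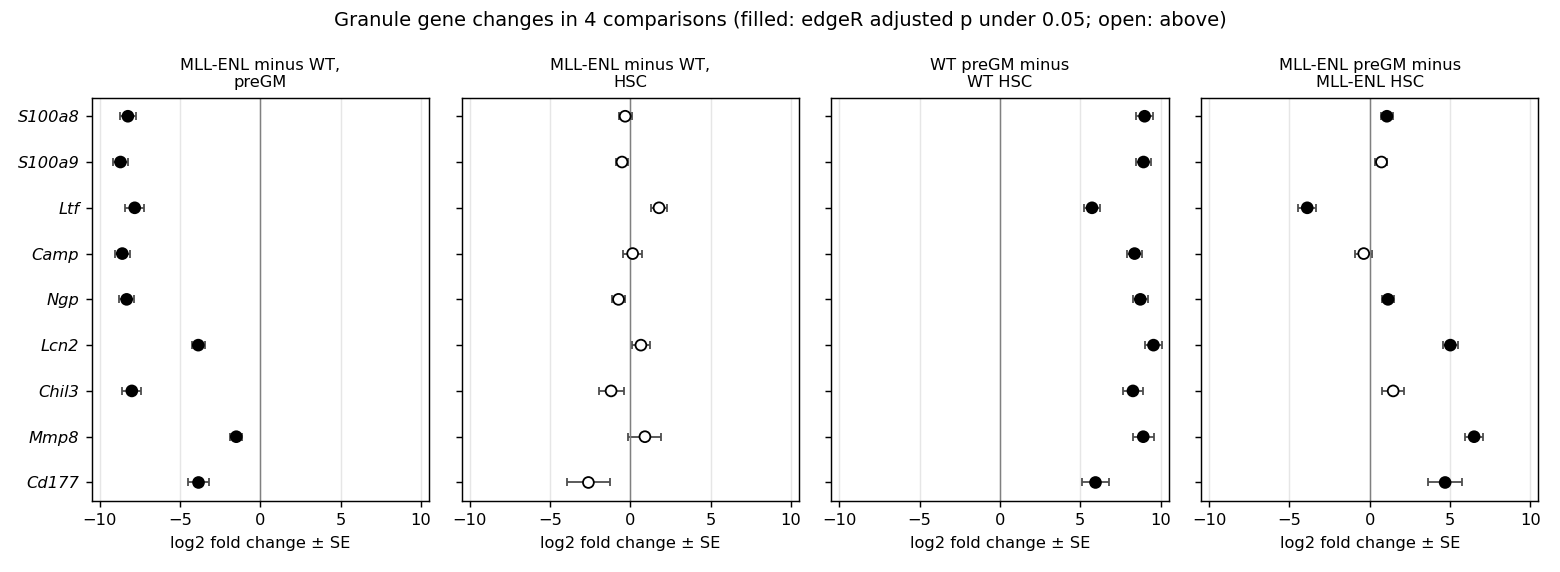
Log2 fold changes of the 9 tested granule genes with SE in 4 comparisons of 3 libraries against 3; filled points have an edgeR adjusted p under 0.05. The 9 genes lie between -8.72 and -1.51 in the comparison of MLL-ENL with WT preGM, and only Ltf lies below 0 with a filled point between MLL-ENL preGM and MLL-ENL HSC.

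Ltf was the member that fell between MLL-ENL HSC and MLL-ENL preGM, from 2.25, 1.99 and 2.58 CPM to 0.169, 0.162 and 0.110 CPM (log2 change -3.90 ± 0.54, edgeR adjusted p = 5.31e-05). It was also the member nearest to a difference between the HSC groups. In WT HSC it stood at 0.559, 1.09 and 0.246 CPM, on 10, 24 and 4 counts, and in MLL-ENL HSC on 71, 50 and 73 counts, so the groups did not overlap. The log2 difference was 1.79 ± 0.49 (edgeR adjusted p = 0.0511). The counts in MLL-ENL HSC were spread over 15, 13 and 15 of 17 exons. It passed the threshold in 7 of 25 settings, with an adjusted p of 0.00992 by DESeq2, of 0.0361 by edgeR without WT HSC library 2, of 0.0256 without WT preGM library 2 and of 0.00692 without the 2 libraries that stood apart. Per 100 S100a8 counts, Ltf had 14.5, 26.4 and 3.25 counts in WT HSC, 55.9, 45.0 and 64.6 in MLL-ENL HSC and 0.460 to 2.95 in WT preGM.

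Otherwise the HSC groups held traces of these genes. Per 100 S100a8 counts, S100a9 had 34.8, 42.9 and 29.3 counts in WT HSC and 33.3, 31.6 and 34.2 in WT preGM. Lcn2 had 5.80, 9.89 and 6.50 in WT HSC, below its 10.6, 10.6 and 11.1 in WT preGM. Whether such traces, here and in MLL-ENL preGM, are RNA of the sorted cells was not tested. Together the members made up 0.000905% to 0.00149% of gene counts in WT HSC and 0.00124% to 0.00130% in MLL-ENL HSC. By edgeR 0 of 9 members were called between the HSC groups, where 4.13% of tested genes were (3.19% higher and 0.936% lower). At an unadjusted p under 0.05 there was 1 (Ltf), where 1780 of the 15706 genes were higher and 1113 lower at that level. DESeq2 called 1 member, of 1339 genes called in all, and limma 0 at either pseudocount, of 1109 and 1510 genes. Ngp was lower in every MLL-ENL HSC library (0.823, 0.517 and 0.955 CPM) than in every WT HSC library (1.34, 0.996 and 1.54 CPM), but missed the threshold (log2 difference -0.73 ± 0.41, edgeR adjusted p = 0.361). Without overlap between the groups, 17.0% of tested genes were lower and 17.8% higher, against 1 member each (Ngp and Ltf). S100a8 differed by -0.32 ± 0.40 and S100a9 by -0.51 ± 0.39 on the log2 scale (edgeR adjusted p = 0.713 and 0.518).

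Whether the response to MLL-ENL differed between preGM and HSC was tested as an interaction. S100a8, S100a9, Ltf, Camp, Ngp, Lcn2 and Chil3 were called, each with a lower response in preGM, from -4.54 ± 0.67 for Lcn2 to -9.63 ± 0.74 for Ltf on the log2 scale. Among all tested genes 2.06% were called lower in this test, 1.08% higher and 3.13% in either direction. Mmp8 (-2.42 ± 1.09, edgeR adjusted p = 0.282) and Cd177 (-1.25 ± 2.13, edgeR adjusted p = 0.839) were not called, and both had counts near 0 in the HSC libraries. The called members were also low in both HSC groups (Camp had 3, 7 and 2 counts in WT HSC). A fall as large as in preGM could not be measured there. Camp also reached the count filter only through WT preGM. The test therefore largely restates the preGM change and is not separate support for it.

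Other genes of the neutrophil programme also fell. Of 24 tested genes of maturing neutrophils that are not members, 14 fell in MLL-ENL preGM and none rose. Among all tested genes 3.07% were called lower. The median log2 change of the 24 was -2.25. Those with the largest changes by size were Fcnb, a ficolin of granules (-8.32 ± 0.53, edgeR adjusted p = 8.57e-08), the resistin-like gene Retnlg (-7.71 ± 1.35, edgeR adjusted p = 0.00228) and the formyl peptide receptor Fpr1, which did not pass (edgeR adjusted p = 0.0521). Fpr1 had 14, 19 and 42 counts in WT preGM and 0 in every MLL-ENL preGM library, and Retnlg had 2, 0 and 0 counts there, so the fitted size of both changes depends on how low counts are smoothed. Genes that reached the count filter only through WT preGM, Fcnb and Retnlg among them, could only fall in this comparison. The Fpr1 call was gained in 8 other settings, with edgeR adjusted p from 0.00568 to 0.0490. Fcnb stood at 82.6, 41.9 and 61.1 CPM in the WT preGM libraries and at 0.0753, 0.195 and 0.331 CPM in MLL-ENL preGM. Ly6g, which marks mature mouse neutrophils and was singled out after its values were seen, was at 0.119, 0.372 and 0.313 CPM in the WT preGM libraries and at 0, 0 and 0.0276 CPM in MLL-ENL preGM, and Olfm4, singled out likewise, was at 0 in all preGM libraries. Among 9 tested primary granule genes 7 fell, with a median of -1.58. They include Elane, neutrophil elastase (-2.39 ± 0.35), and the serine proteases Prss57 (-1.90 ± 0.23) and Prtn3 (-1.78 ± 0.29). With a fit on the groups of the contrast alone 3 of the 9 were called. Mpo, which was not called and was singled out after its values were seen, stood at 5738, 2432 and 7586 CPM in the WT preGM libraries and at 12105, 5351 and 6408 CPM in MLL-ENL preGM (log2 change 0.60, edgeR adjusted p = 0.413). Serpinb1a, singled out likewise, was the other primary granule gene not called (-0.63, edgeR adjusted p = 0.316).

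Of 17 regulators of the lineage, 5 fell and 1 rose in MLL-ENL preGM, where 3.07% of all tested genes were called lower and 3.70% higher. Among the C/EBP factors, Cebpb fell from 18.3, 33.2 and 18.6 CPM to 3.09, 5.04 and 4.55 CPM (log2 change -2.47 ± 0.39, edgeR adjusted p = 0.000891). Cebpd fell by a log2 of 2.54 ± 0.46 (edgeR adjusted p = 0.00300). Cebpe, the factor most closely tied to secondary granule genes, fell from 36.7, 32.5 and 28.9 CPM to 5.87, 8.19 and 8.11 CPM (-2.15 ± 0.53, edgeR adjusted p = 0.0231). Its call was lost by DESeq2 (adjusted p = 0.162) and by limma at pseudocount 0.1 (adjusted p = 0.113). By edgeR it was lost with scaling by library size alone (0.0773), without WT preGM library 1 (0.0956) or 2 (0.0702), without MLL-ENL preGM library 1 (0.0735) or 3 (0.0552) and without the 2 libraries that stood apart (0.0549), all as adjusted p, while its groups did not overlap. Cebpa, which acts earlier, was not called (-0.77, edgeR adjusted p = 0.189), nor were Cebpg (-0.07) and Cebpz (-0.45). Spi1, which encodes PU.1, fell (-1.53 ± 0.32, edgeR adjusted p = 0.00682), and so did the GM-CSF receptor chain Csf2ra (-1.58 ± 0.26, edgeR adjusted p = 0.00133). The repressor Gfi1b rose (1.56 ± 0.40, edgeR adjusted p = 0.0272). That call was lost with a fit on the groups of the contrast alone (edgeR adjusted p = 0.124). It was also lost without WT preGM library 1 (edgeR adjusted p = 0.0627) or MLL-ENL preGM library 1 (0.0644) or 3 (0.0514). Gfi1, a relative of Gfi1b, was not called (-0.95, edgeR adjusted p = 0.128). The log2 changes of the other regulators not called were 0.80 for the G-CSF receptor Csf3r, -0.65 for Csf2rb, -0.83 for Irf8, -1.53 for Klf5, -0.04 for Runx1, 0.52 for Myb and 0.42 for Stat3. Some of these depended on the setting. Csf2rb was called lower without MLL-ENL preGM library 1 (-1.04, edgeR adjusted p = 0.00393) and without the 2 libraries that stood apart (-0.99, edgeR adjusted p = 0.000459). Csf3r was at -0.00700 without MLL-ENL preGM library 1, and Cebpz was at 0.0147 without the 2 libraries. DESeq2 called Klf5 lower (adjusted p = 0.0401) and Myb higher (adjusted p = 0.0494), and edgeR called Myb higher with library size alone (adjusted p = 0.0381). Runx1 and Cebpg changed sign in some settings.

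**Figure D5:**
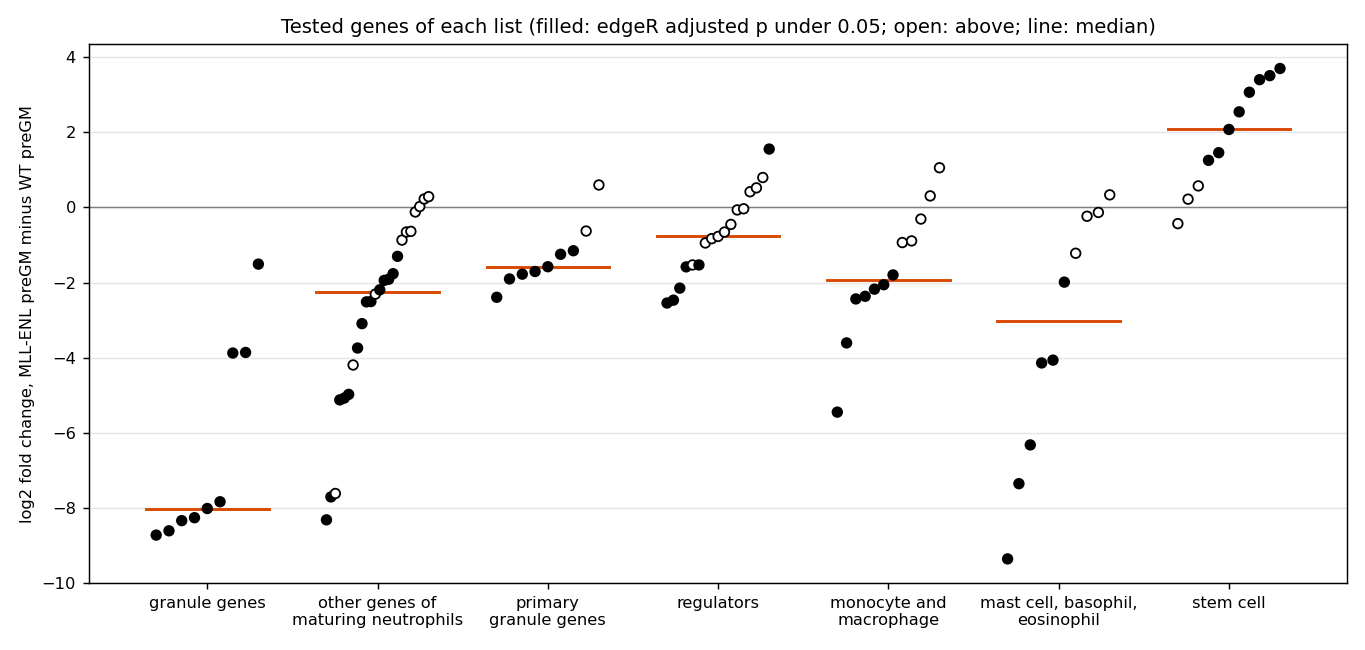
Log2 fold changes of MLL-ENL preGM against WT preGM for the tested genes of 7 lists; filled points have an edgeR adjusted p under 0.05 and lines are list medians. The granule genes have a median of -8.02, other genes of maturing neutrophils -2.25, primary granule genes -1.58, regulators -0.77 and stem cell genes 2.08.

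Some markers of other myeloid lineages fell as well, where 3.07% of all tested genes were called lower and 3.70% higher. Of 12 tested monocyte and macrophage markers 7 fell, and their summed level was 1616 to 2186 CPM across WT preGM and 534 to 547 CPM across MLL-ENL preGM. Klf4 (-5.45 ± 0.75), Ly6c2 (-3.61 ± 0.36) and Ms4a6c (-2.44 ± 0.34) had the largest changes on the log2 scale. Ccr2, a monocyte chemokine receptor singled out after its values were seen, was instead higher in each MLL-ENL preGM library (292, 143 and 137 CPM) than in each WT preGM library (82.7, 105 and 87.4 CPM), though it missed the threshold (1.06 ± 0.36, edgeR adjusted p = 0.0904). Of 10 tested mast cell, basophil and eosinophil markers 6 fell, and the summed level of the 11 listed was 1475 to 2518 CPM across WT preGM and 231 to 329 CPM across MLL-ENL preGM, where Tpsb2 was at 0. Prg2 (-9.36 ± 1.02), Prss34 (-7.35 ± 0.63) and Cma1 (-6.32 ± 0.66) led this list, and Prg2 ranged from 7.41 to 179 CPM among the WT preGM libraries. Prg2 and Cma1 reached the count filter only through WT preGM, so they could only fall. Among the markers of this list not called were the mast cell and basophil receptor chain Fcer1a (-0.13, edgeR adjusted p = 0.809) and Gata2 (0.34, edgeR adjusted p = 0.338), both singled out after their values were seen. Of 8 genes of the sorting gates 2 fell and 2 rose. Fcgr3 stood at 236, 137 and 250.4 CPM in the WT preGM libraries and at 22.8, 42.9 and 42.4 CPM in MLL-ENL preGM (-2.53 ± 0.35, edgeR adjusted p = 0.000339), while Fcgr2b, singled out as its gate partner, stood at 189, 84.8 and 186 against 119, 155 and 149 CPM (-0.12, edgeR adjusted p = 0.844). Slamf1, which encodes CD150, rose from 0.0896, 0.186 and 0.142 to 0.978, 1.01 and 1.82 CPM (3.19 ± 0.47, edgeR adjusted p = 0.000493). Itga2b, which encodes CD41, rose from 3.43, 3.86 and 4.16 to 28.98, 7.96 and 9.24 CPM (2.02 ± 0.39, edgeR adjusted p = 0.00449). Both calls were lost by limma at pseudocount 1 (adjusted p = 0.309 and 0.0976), and that of Itga2b with last exons only (0.409). Among the stem cell markers 8 of 11 rose and none fell, with a summed level of 83.3 to 98.0 CPM across WT preGM and 318 to 641 CPM across MLL-ENL preGM, led by Mecom (3.70 ± 0.29), Hoxb5 (3.51 ± 0.71) and Meis1 (3.40 ± 0.39). Meis1 was at 185 CPM in MLL-ENL preGM library 1 and at 57.6 and 56.1 CPM in libraries 2 and 3, and its change was 2.60 without library 1. Hoxb5 had 1 count in each WT preGM library, and its call was lost by limma at both pseudocounts (adjusted p = 0.117 and 0.664), as was that of Mecom at pseudocount 1 (0.0608). Of 14 erythroid and megakaryocyte markers 4 fell and 2 rose. Their summed level was 244 to 431 CPM across WT preGM and 787 to 1216 CPM across MLL-ENL preGM. Car2, singled out after its values were seen, stood at 262, 72.3 and 285 against 666, 1074 and 906 CPM and so made up most of the sum in MLL-ENL preGM. The largest changes of this list were those of the globins Hba-a1 (-2.68, edgeR adjusted p = 0.0825, not called) and Hbb-bs (-2.35, edgeR adjusted p = 0.0100) and of the platelet gene Gp1bb (-2.26, edgeR adjusted p = 0.0112). Without the 2 libraries that stood apart neither Hbb-bs (edgeR adjusted p = 0.0887) nor Gp1bb (0.109) was called. Of 11 lymphoid and 8 stromal markers only 2 and 3 could be tested, and 1 of each rose, Dntt (4.76) and Col1a2 (3.62) on the log2 scale, the latter not called by limma at either pseudocount (adjusted p = 0.0585 and 0.284). The log2 changes of the others tested, none of them called, were -0.04 for Cd79b, 0.91 for Pecam1 and -1.08 for Kdr. The part of these shifts in the fall of the granule genes was not tested.

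The genes whose levels over the 12 libraries were most like the members' median profile, by the root mean square difference of centred log2 CPM, were Fcnb (0.52), Cma1 (0.87), Prss34 (0.89), Lipg (0.90), Mcemp1 (0.92), Clec4a2 (0.92), Chil1 (1.04) and Lilra6 (1.10). They include a granule gene (Fcnb), a mast cell chymase (Cma1) and a basophil protease (Prss34). Fcnb, Cma1 and Lilra6 reached the count filter only through WT preGM. Lipg fell from 50.0, 34.7 and 39.6 CPM in WT preGM to 0.640, 0.617 and 0.441 CPM in MLL-ENL preGM, and Clec4a2 from 45.1, 45.9 and 40.3 to 0.621, 0.942 and 0.910 CPM.

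The neighbours of the members mostly did not move with them. Of 97 tested genes within 250 kb of a member, 8 were called between MLL-ENL and WT preGM (4 lower and 4 higher), close to the 6.77% of all tested genes. Next to S100a8 and S100a9, their relatives S100a4 (-2.27 ± 0.34) and S100a6 (-2.46 ± 0.38) fell on the log2 scale, by less than the members did. Gm42674 (-2.27) shares 99.4% of its exon bases with another gene, and 84.8% of the S100a4 bases are shared, so these 2 values are not separate measurements. Ceacam10, beside Cd177, fell (-4.92 ± 1.04, edgeR adjusted p = 0.0140), but was not called without WT preGM library 1 (0.0596) or 3 (0.0760), MLL-ENL preGM library 1 (0.0887) or the 2 libraries that stood apart (0.0747). Ceacam10 reached the count filter only through WT preGM, so it could only fall. Around Lcn2, which fell, Ak1 (0.93), Fam102a (1.17), Ciz1 (0.98) and Pomt1 (1.01) rose on the log2 scale. These 4 calls were each lost in 2 or more settings. Those of Ciz1 and Pomt1 were lost in most settings, leaving out any single HSC library among them. That of Pomt1 was also lost without the 2 libraries that stood apart (edgeR adjusted p = 0.202).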

How the data were processed

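RNA from 12 libraries (3 in each of 4 groups) was, per the labels' protocols, isolated on RNeasy micro columns and made into libraries with a SMARTer kit for low input. The authors deposited, per the file headers, a raw read count and an RPKM value for each exon, intron and spliced transcript of Ensembl transcripts. TopHat2 2.0.8, Bowtie2 2.1.0, HTSeq and edgeR are named in the submitters' processing notes, without role. The sources used here do not say whether counting used strand. Of 93615 transcripts, 95.8% were matched to GENCODE M21 (GRCm38). Exon counts were summed over non-overlapping exons of each gene. edgeR 4.0.16 (R 4.3.3; TMM scaling, robust quasi-likelihood fit over all 12 libraries, genes with about 10 counts in at least 3 libraries, Benjamini-Hochberg adjusted p under 0.05) was tested on simulated data. DESeq2 1.42.0 on the counts, limma 3.58.1 on log2(RPKM + 0.1) and log2(RPKM + 1), other scalings and filters, and leaving out libraries were among 25 alternatives. Levels are CPM. Library totals of 14529282 to 50325667 counts set the precision, and limits from 3 counts cover counting error only.

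The members and gene lists were chosen with earlier results of these data known. The rule for named genes took the 10 members, all regulators, the 3 tested genes of each other list with the largest absolute log2 change in preGM, the 8 genes nearest the members' median profile, and neighbours within 250 kb called in preGM. Other genes named were chosen after their values were seen.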

Additional observations from a re-analysis of the deposited data

Results flagged for a closer look

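For 7 members the response to MLL-ENL differed between preGM and HSC by edgeR's interaction test. The difference of the log2 changes (preGM minus HSC) was -7.94 for S100a8, -8.21 for S100a9, -9.63 for Ltf, -8.76 for Camp, -7.61 for Ngp, -4.54 for Lcn2 and -6.82 for Chil3, with edgeR adjusted p from 2.1e-06 to 0.0018. All 7 were called in each of the 12 fits that left out 1 library. Both HSC groups held little RNA of these genes, so a fall of this size could not be measured there. Camp also reached the count filter only through WT preGM. The test therefore largely restates the preGM change. Among all tested genes 2.06% were called lower in this test and 3.13% in either direction. Of the 7, Ltf had the largest difference, with a preGM change of -7.83 and an HSC difference of 1.79 that was itself not called (edgeR adjusted p = 0.0511).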

How the results depend on the processing

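Genes called between MLL-ENL and WT preGM numbered 1063, against 1741 with DESeq2, 618 with limma on log2(RPKM + 1) and 566 to 1345 when single libraries were left out. Between the HSC groups 648 were called, against 1339 with DESeq2, 2507 with a fit on these groups alone, 1109 and 1510 with limma (pseudocounts 0.1 and 1), 3369 without WT preGM library 2 and MLL-ENL preGM library 1, and 312 to 1283 without single libraries. The interaction gave 492 calls, 1058 with DESeq2, 1927 without those 2 libraries and 299 to 694 without single ones. The preGM against HSC comparisons gave 4569 to 7112 (WT) and 5038 to 7217 (MLL-ENL) calls without single libraries. Without single libraries, members called numbered 8 to 9 between the preGM groups, 9 to 9 between WT preGM and WT HSC, 7 to 7 in the interaction, 0 to 1 between the HSC groups and 4 to 7 between MLL-ENL preGM and HSC. Lists called there ranged from 10 to 15 (late neutrophil), 5 to 7 (primary granule) and 4 to 6 (regulators), and primary granule genes fell from 7 to 3 with a fit on the preGM groups alone. Between the HSC groups 1 member (Ltf) was called with DESeq2, with no filter, with a filter on CPM and without those 2 libraries. Between MLL-ENL preGM and HSC 3 members were called with a fit on these groups alone and 3 with limma at pseudocount 1.

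Scaling by library size alone shifted the median log2 change of all genes by 0.32 (preGM), 0.19 (HSC), -0.70 (WT preGM against HSC), -0.56 (MLL-ENL preGM against HSC) and 0.13 (interaction), and the percent of calls that were higher went from 54.7 to 74.9, 77.3 to 87.9, 47.8 to 16.2 and 49.1 to 18.1 in the first 4. Some log2 values changed sign. In preGM, Cebpg became 0.30 with library size alone, 0.23 and 0.19 with limma, 0.0184 with last exons only and -0.21 to 0.0805 without single libraries. Runx1 became 0.31, 0.31 and 0.24 in the first 3 of these settings, 0.29 without the 2 libraries that stood apart, 0.12 with last exons only and -0.18 to 0.24 without single libraries. Cd79b became 0.20 with library size alone, 0.27 and 0.26 with limma and -0.28 to 0.20 without single libraries. Cebpz became 0.0147 and Kdr 0.0110 without the 2 libraries that stood apart, Gp1bb 0.0480 with last exons only, and Csf3r ranged from -0.00700 to 1.08 without single libraries. Between the HSC groups S100a8 ranged from -0.49 to 0.0656 and Camp from -0.41 to 0.67 without single libraries, and Chil3 became 0.16 and Mmp8 -2.26 with last exons only. Camp ranged from -0.66 to 0.19 between MLL-ENL preGM and HSC without single libraries, and the Mmp8 interaction became 0.43 with last exons only. The last-exon setting was chosen after seeing the data. The cause was not tested.

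The correlations gave no sign that replicate numbers pair the libraries. Of 18 same-numbered pairs 1 had a correlation of deviations above 0.1, and 0 of 12 libraries correlated best with their own number. The deviations are from means of 3 libraries, so low correlations cannot exclude shared animals or batches. With the replicate number as a block, 864 genes and 9 members were called between the preGM groups, and S100a8 between MLL-ENL preGM and HSC was not called (adjusted p = 0.0559).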
